A study of Mus musculus with 4 samples.

Results

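The mu-class glutathione transferases of the mouse are encoded by a cluster of neighbouring genes on chromosome 3, and 5 of them (Gstm1, Gstm2, Gstm3, Gstm6 and Gstm7) had a row in a table of Nrf2 chromatin immunoprecipitation sequencing (ChIP-seq) from esophagus. They were chosen by gene name, and make up 5 of the 1940 gene rows. RefSeq lists 7 mu-class genes, so 2 of them, Gstm4 and Gstm5, had no row. Of all protein-coding RefSeq genes, 7.67% had one. Nrf2 binding was measured in frozen esophagus of C57BL/6 mice of 3 genotypes, with the antibody sc-13032 and 1 library each. The genotypes were wild-type, Nrf2KO, which lacks Nrf2, and Keap1KO, which lacks Keap1. Pooled input DNA was sequenced too, but is not used here because the table gives no value for it. The labels give no age and no number of animals, and do not say how either gene was deleted or in which cells. Heights of ChIP signal do not check the tissue.

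Glutathione transferases join glutathione to reactive and foreign compounds, which makes them more soluble and easier to export. Nrf2, paired with a small Maf protein, binds the antioxidant response element, whose core is TGACNNNGC, and Keap1 holds Nrf2 down by marking it for degradation. Genes of the mu class are long known as inducible by Nrf2-activating compounds in liver and other tissues. All 5 enzymes belong to the cytosolic, glutathione-conjugating kind.

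The 5 gene rows are not 5 separate measurements. They held 5 called intervals, 4 from Keap1KO and 1 from wild-type, and none from Nrf2KO, which had a call in 0 of all 1940 gene rows. An interval is a stretch that the peak caller marked as enriched in 1 library, and the table gives a single position for it. The wild-type interval and the Keap1KO interval of Gstm1 lay 96 bp apart and were counted by the authors as 1 active region, so the 5 rows rest on 4 regions, each a locus of its own among the 1460 loci of the table. Gstm6 and Gstm7 listed the same Keap1KO interval and therefore have identical heights. Of the 5 intervals, 4 stood under 2 rows: that of Gstm6 and Gstm7, that of Gstm2 and the pseudogene Gm12497, and both intervals of Gstm1, which are also listed under the pseudogene Gm12502. Of all intervals, 26.1% were listed under more than 1 gene.

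Start-site sequences are shown for genes whose intervals lay at contrasting distances from the start. For Gstm1, which had the tallest mu-class locus, the 250 bases before its start (chr3:108017974-108018223, minus strand) held none of the motifs searched, and its interval lay 4565 bp into the gene. Gstm2 (chr3:107986421-107986670, minus strand) was the mu-class gene with an interval closest to its start, at 271 bp, and capitals mark a TGCTGAC. For contrast, Gsta3 (chr1:21240335-21240584, plus strand), an alpha-class transferase, had its interval 173 bp before the start, and capitals mark a match to TGACNNNGC. It is a single example and does not stand for all transferases with an interval near the start. Intervals of Gstp1, Gstz1 and Gsta4 lay nearer to their starts, at 8, 131 and 158 bp. All are from RefSeq on GRCm38.p6, written 5′ to 3′ on the strand of the gene.
Gstm1: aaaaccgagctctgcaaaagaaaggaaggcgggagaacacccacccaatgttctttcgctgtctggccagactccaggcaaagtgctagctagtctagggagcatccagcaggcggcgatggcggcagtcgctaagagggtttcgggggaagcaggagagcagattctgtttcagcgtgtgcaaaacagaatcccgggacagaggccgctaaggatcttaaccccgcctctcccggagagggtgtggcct
Gstm2: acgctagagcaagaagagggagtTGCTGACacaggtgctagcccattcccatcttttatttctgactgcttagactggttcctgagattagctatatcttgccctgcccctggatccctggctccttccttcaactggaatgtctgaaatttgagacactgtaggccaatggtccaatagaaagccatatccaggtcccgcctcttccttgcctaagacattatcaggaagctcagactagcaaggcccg
Gsta3: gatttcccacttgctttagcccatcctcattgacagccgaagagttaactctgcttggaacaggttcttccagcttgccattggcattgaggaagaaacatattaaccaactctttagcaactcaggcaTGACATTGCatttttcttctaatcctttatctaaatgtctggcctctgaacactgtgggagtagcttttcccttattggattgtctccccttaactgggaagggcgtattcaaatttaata

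Each of the 5 genes was found in RefSeq's set of start-site windows, which run from 250 bases before to 50 after a start, with 9 windows between them because some genes have several starts. The searched motifs were TGACNNNGC, TGACTCA (the AP-1 site, which shares its first 4 bases with the former and can overlap it) and TGCTGAC (a half-site of the Maf recognition element, which ends in the same 4 bases), on both strands. TGCTGAC was added after the Gstm2 window had been read. None of the 9 windows held an interval position. TGACNNNGC was found in 1 of them, a window of Gstm7, as TGACAAAGC (chr3:107931735-107931743), and it occurs in 12.4% of all 32851 windows. TGCTGAC was found in the Gstm2 window alone, against 4.67% of all windows, and TGACTCA in none, against 5.20%. Among the 168 windows of any gene that did hold an interval position, 38.7% had TGACNNNGC, 19.6% TGACTCA and 8.33% TGCTGAC. A Gsta3 window was among those 168, with TGACATTGC at chr1:21240464-21240472. So was a Gstp1 window, in which TGACTCA and TGCTGAC were found but no TGACNNNGC. Sequence under the mu-class intervals themselves was not analysed here.

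These 5 genes lie on the minus strand of chromosome 3 (build mm10), so transcription runs from Gstm1 towards Gstm7. In the table Gstm1 (GeneID 14862) spans chr3:108012250-108017973, Gstm2 (14863) chr3:107981702-107986436, Gstm3 (14864) chr3:107963696-107969174, Gstm6 (14867) chr3:107938848-107943749 and Gstm7 (68312) chr3:107926334-107931745. Together they cover 91.6 kb. The Keap1KO intervals were at positions 108013408 (Gstm1), 107986165 (Gstm2), 107964944 (Gstm3) and 107939680 (Gstm6 and Gstm7), and were spaced by 27.2, 21.2 and 25.3 kb. Interval positions mostly follow a grid, since 95.5% of all positions in the table are multiples of 16 bp, and 4 of the 5 mu-class positions are. Whether an interval lies within a gene or on either side of it is stated, but not whether it is exonic or intronic.

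**Figure D1:**
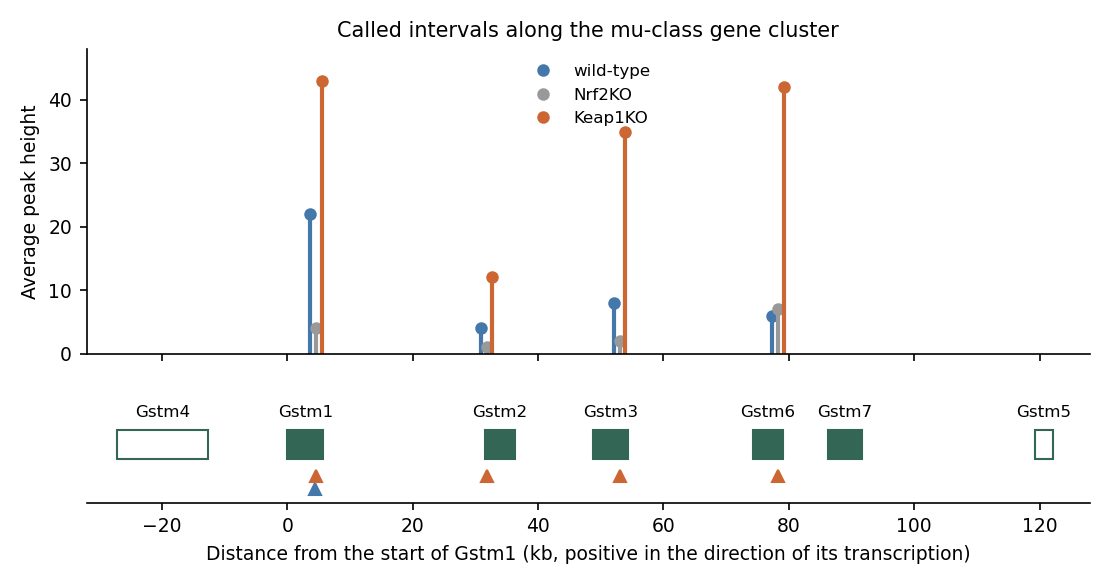
Top, average peak height in the 3 libraries at the 4 mu-class loci, against distance from the start of Gstm1 (kb); stems of a locus are set slightly apart so that each can be seen. Bottom, genes with a row (filled) and without one (open), with triangles for called intervals in Keap1KO (orange) and wild-type (blue). The Keap1KO intervals of Gstm1, Gstm3 and Gstm6 lie in the last part of their gene, and that of Gstm2 lies near its start.

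In Gstm1, Gstm3 and Gstm6 the interval lay at nearly the same place. The Keap1KO interval was 4565 bp into Gstm1, 4230 bp into Gstm3 and 4069 bp into Gstm6, that is 79.8%, 77.2% and 83.0% of the way along genes that are 5723, 5478 and 4901 bp long. From the end of the gene it was 1158, 1248 and 832 bp away. The wild-type interval of Gstm1 was 4469 bp in. In Gstm2, a gene of 4734 bp, the interval was 5.72% of the way along. Gstm7 held no interval inside the gene and listed that of Gstm6, 7935 bp upstream of its own start.

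Positions in other genes of like length give the setting. Among 47 in-gene Keap1KO intervals of genes of 4 to 7 kb, 24 lay in the first 20% of the gene and 6 between 75% and 85% of its length. Of those 6, Gstm1, Gstm3 and Gstm6 gave 3, and the 43 intervals of genes outside the mu class gave 3 (6.98%). Over genes of any length 80 of 1157 intervals (6.91%) lay there. Over genes of any length, 47 of the 1157 (4.06%) were within 1.5 kb of the gene end and nearer to it than to the start, and 3 of these were mu-class. The last 1.5 kb is a larger part of a short gene, so this share is no setting for genes of like length. Other genes of 4 to 7 kb had such an interval too, for example Gnat1, at 4328 bp of 5118 bp. These limits were chosen after the positions had been seen, and tandem copies of a gene are not independent of each other. The figure for Gstm6 depends on the gene model, since the outermost RefSeq start is 9892 bp farther upstream and puts the interval 13961 bp in. The other 4 genes had starts in the table within 132 bp of RefSeq.

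**Figure D2:**
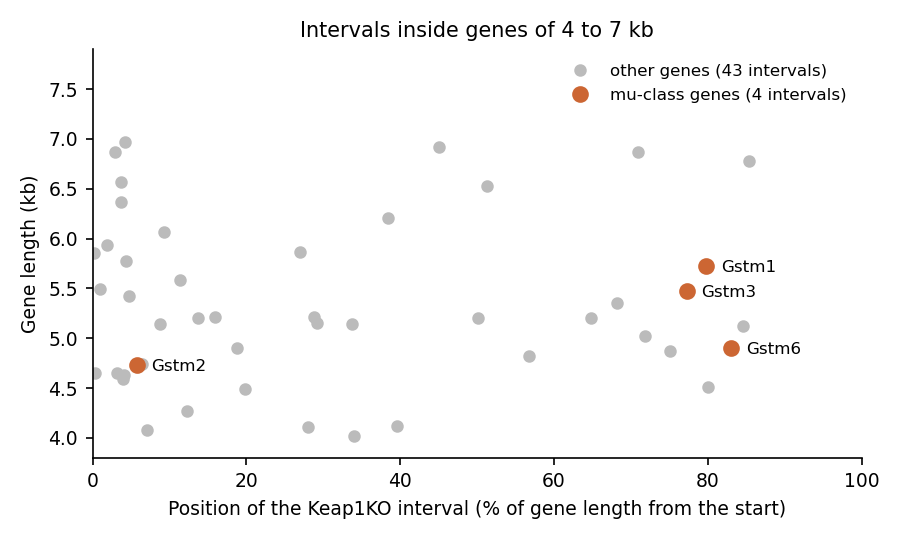
Each point is a Keap1KO interval inside a gene of 4 to 7 kb, placed by its position as % of the gene length from the start (x) and by gene length in kb (y). Of the mu-class genes (orange), Gstm1, Gstm3 and Gstm6 sit between 77.2% and 83.0% and Gstm2 at 5.72%. Of the 43 intervals outside the mu class (grey), 3 lie between 75% and 85%.

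At Gstm1 the average peak height of the wild-type library was 22, that of Nrf2KO 4 and that of Keap1KO 43. Signal was thus already tall in wild-type: only the loci of Txn1 (25) and Gpi1 (32) had a taller locus height there, whereas 67 loci were taller in Keap1KO and 734 in Nrf2KO. The height of a locus of more than 1 region, of which there are 181, is a mean over its regions, so a single region in one of them may be taller. Heights have no stated unit, and the depth of each library is unknown.

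At Gstm3 Nrf2KO had a height of 2, wild-type 8 and Keap1KO 35. The order of the libraries was the same as at Gstm1, from a lower wild-type level. At the locus shared by Gstm6 and Gstm7 wild-type had a height of 6, Nrf2KO 7 and Keap1KO 42. Here wild-type was no taller than the library without Nrf2, and Keap1KO stood alone. At Gstm2 Nrf2KO had a height of 1, wild-type 4 and Keap1KO 12. This was the lowest mu-class locus in each library, and in Keap1KO 1289 of the 1460 loci were taller.

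The all-locus median height was 4.33 for Nrf2KO, 5 for wild-type and 18 for Keap1KO. Against these, Keap1KO heights were well above the median at Gstm1, Gstm3 and the Gstm6 and Gstm7 locus, and below it at Gstm2. In Nrf2KO the Gstm6 and Gstm7 locus alone was above the median. Gstm1 was called in wild-type and Keap1KO, the other loci in Keap1KO only. Of all loci, 3.77% were called in wild-type and 99.2% in Keap1KO, so a call in Keap1KO says little about these genes.

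**Figure D3:**
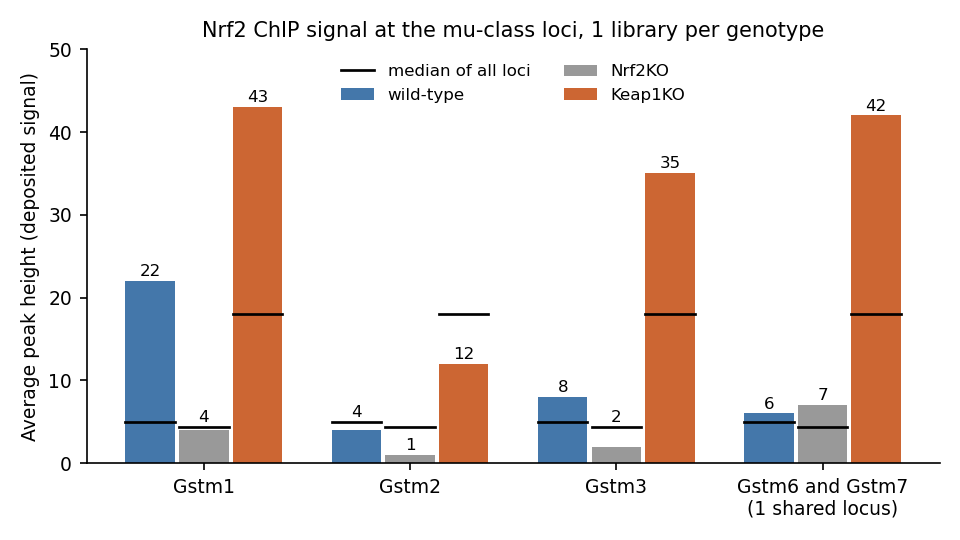
Bars give the average peak height (deposited signal, from 0) at the 4 mu-class loci in wild-type, Nrf2KO and Keap1KO, with 1 library per genotype and no error bar. Black lines mark the median of all 1460 loci in the same library (5, 4.33 and 18). Gstm1 has the tallest wild-type bar (22), and the Gstm6 and Gstm7 locus reaches 42 in Keap1KO from 6 in wild-type.

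With 1 library per genotype there is no replicate check and no test between genotypes, and the folds that follow, of heights with 1 added, are descriptions of 3 libraries. They shrink at low heights because of the added 1. The 3 comparisons share libraries with each other. Of all loci, 99.2% were called in Keap1KO, so Keap1KO heights were selected upwards and exceed the others partly through that selection.

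Keap1KO over wild-type asks how much taller the signal is in the library without Keap1. The fold was 6.14 at the Gstm6 and Gstm7 locus, 4 at Gstm3, 2.6 at Gstm2 and 1.91 at Gstm1. So 3 of the 4 loci were at least 2-fold higher in Keap1KO and none was 2-fold lower, against 88% of all loci higher and 0.274% lower. Listing through Keap1KO calls raises the part that is higher, in the mu class as over all loci. The median log2 ratio was 1.69 over the mu-class loci and 1.74 over all loci. Relative to that all-locus median, the Gstm6 and Gstm7 locus was 0.88 and Gstm3 0.26 above, while Gstm2 fell short with a difference of -0.36 and Gstm1 with -0.80. Scaling heights to equal library medians takes the all-locus median to 0.07 by construction, so it nearly restates these differences. The scaled log2 ratio was -0.84 at Gstm1, -0.22 at Gstm2, 0.89 at Gstm6 and Gstm7 and 0.26 at Gstm3. A negative value here describes a fold below that of the typical locus.

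At a given Keap1KO height a taller wild-type signal gives a smaller fold by arithmetic, and Gstm1 was tall in wild-type. In Keap1KO its height of 43 was close to the 42 of the Gstm6 and Gstm7 locus, yet wild-type stood at 22 and 6. Among the 47 loci with a Keap1KO height from 38 to 48, wild-type heights ran from 2 to 22 with a median of 9 (quartiles 7.5 and 11.25). Gstm1 was the tallest of these in wild-type, ahead of a locus at 17, and 6 of the 47 were below 6. Loci called in wild-type had their wild-type height selected upwards, so Gstm1 is better set beside the 43 loci called in both libraries. There 32 were at least 2-fold higher in Keap1KO, the median log2 ratio was 1.34, and 10 loci had a lower ratio than the 0.94 of Gstm1.

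**Figure D4:**
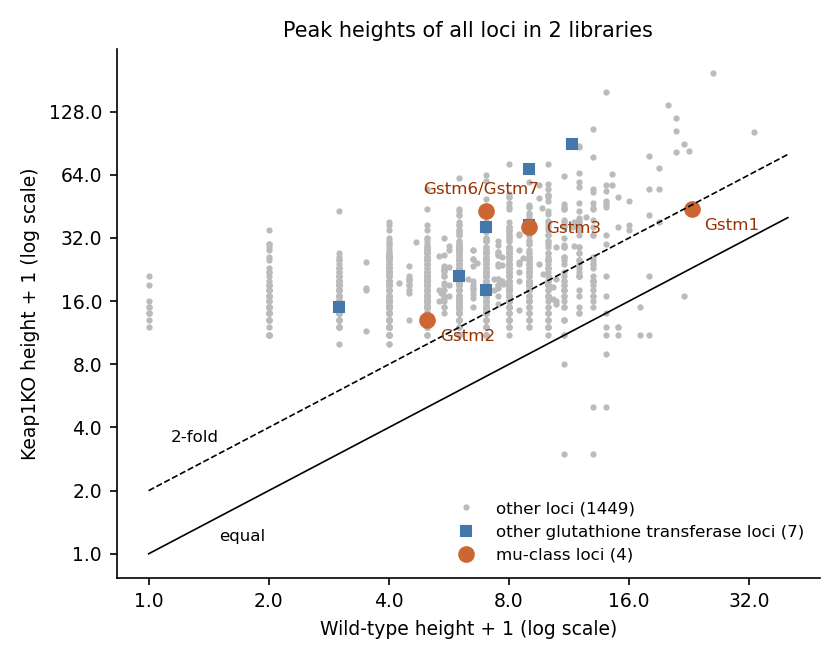
Each point is a locus, with wild-type height + 1 (x) against Keap1KO height + 1 (y), both on log scales; lines mark equal heights and a 2-fold difference. Gstm1 (22 and 43) lies just under the 2-fold line far to the right, while the Gstm6 and Gstm7 locus (6 and 42), Gstm3 (8 and 35) and Gstm2 (4 and 12) lie above it.

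Wild-type over Nrf2KO asks what signal depends on Nrf2 at its ordinary level, the Nrf2KO library giving the background of the antibody. The fold was 4.6 at Gstm1, 3 at Gstm3, 2.5 at Gstm2 and 0.875 at the Gstm6 and Gstm7 locus. Thus 3 of 4 loci were at least 2-fold higher in wild-type and none was 2-fold lower, against 18.8% of all loci higher and 8.29% lower. At Gstm1 the log2 ratio was 2.20, and 28 of the 1460 loci had a higher one. At Gstm3 it was 1.58 (74 loci higher) and at Gstm2 1.32 (127 higher), but at Gstm2 it rests on heights of 4 and 1. With 5 added to each height in place of 1, Gstm1 alone stayed at least 2-fold higher (log2 ratio 1.58), with 0.89 at Gstm3 and 0.58 at Gstm2. The Gstm6 and Gstm7 locus had -0.19, close to the all-locus median of 0.19. Among the 43 loci called in both libraries, 2 had a higher ratio than Gstm1.

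Keap1KO over Nrf2KO sets the tallest signal against the antibody background. The fold was 12 at Gstm3, 8.8 at Gstm1, 6.5 at Gstm2 and 5.38 at the Gstm6 and Gstm7 locus. All 4 loci were at least 2-fold higher in Keap1KO and none was 2-fold lower, against 85.3% and 0.137% of all loci. A ratio in this direction is favoured by the Keap1KO calls through which nearly all loci were listed. With heights scaled to equal library medians the Gstm6 and Gstm7 locus was no longer 2-fold higher (log2 ratio 0.49), and the other 3 loci had log2 ratios from 1.13 to 1.80. By construction this scaling also takes the all-locus median of the ratio to 0.07. Unscaled, the median log2 ratio was 2.92 over the mu-class loci and 1.91 over all loci. The order differed from that of the other comparisons, with Gstm3 (2 in Nrf2KO) first and the Gstm6 and Gstm7 locus (7 in Nrf2KO) last. Gstm2 was low in Nrf2KO for a locus close to a gene start. Of the 454 loci with an interval within 1 kb of a gene start, 11 (2.42%) had an Nrf2KO height of 1 or 0, against 13.6% of the 1006 loci farther away.

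Patterns over the 3 libraries were compared by the distance between log2 heights (1 added to each height, 3 values a locus), where 0 means identical heights. Gstm1 had no near match: the closest of the other loci were Acyp2 at 0.64 (wild-type 18, Nrf2KO 6, Keap1KO 54), Asb2 at 0.76, Gclc, which encodes the catalytic subunit that starts glutathione synthesis, at 0.77 (13.5, 4 and 56.5 in the same order), Dhx57 at 0.78 and Mybpc1 at 0.79. Heights of Gclc and of Dhx57 are means over 2 regions, and so not directly comparable with the single region of Gstm1. Gstm3 was nearest to Gdf15, a stress-induced cytokine gene, at 0.13 (8, 2 and 32), then to Taldo1, transaldolase of the pentose phosphate pathway, at 0.32 and Mboat2 at 0.34. The Gstm6 and Gstm7 locus was nearest to Sec14l1 at 0.18, to the locus of E230001N04Rik at 0.20 and to Ddit4l at 0.23. Gstm2 had a match at 0 in Plekho2, followed by Ror1 and Yy1 at 0.11, and 12 loci lay within 0.3 of it. Distances between members ran from 1.48 (Gstm3 to the Gstm6 and Gstm7 locus) to 3.11 (Gstm1 to Gstm2). The matches named above were picked as the closest of all other loci, so they are nearer by selection. Whether members differ more than any loci do was not tested.

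Other classes of glutathione transferase give the setting. Of 21 genes listed, 8 had a row, at 7 loci: the alpha-class genes Gsta3 and Gsta4, the pi-class genes Gstp1 and Gstp2, which share a locus, Gsto2, Gstz1 and the microsomal Mgst1 and Mgst2. All 7 loci were at least 2-fold higher in Keap1KO than in wild-type, with a median log2 ratio of 2.32 (1.69 in the mu class). In 3 of the 7, the wild-type height exceeded that of Nrf2KO by 2-fold or more, with a median of 0.85 (1.45 in the mu class). The tallest of them in wild-type was the Gstp1 and Gstp2 locus, with a mean of 10.5 over its 2 regions and of 89 in Keap1KO, values that are not directly comparable with the single region of Gstm1 (22 and 43). An interval lay within 1 kb of the start in 5 of the 8 genes, and in 1 of the 5 mu-class genes. These differences between a few loci were not tested.

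Near copies limit what a height can be assigned to. Mu-class genes arose by tandem duplication and resemble each other, and how reads that fit more than 1 copy were placed is not stated by any source used here. The split of signal between mu-class genes is therefore uncertain, and so is how far their called positions are separate observations. The part of such reads in these heights and positions was not tested.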

How the data were processed

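Nrf2 ChIP-seq signal was available for wild-type, Nrf2KO and Keap1KO esophagus, 1 library each. The submitters' processing notes name BWA, MACS2 2.1.0 and the build mm10; no source used here gives parameters, depth or a scaling between libraries. Per the file headers, the deposited signal is an average peak height per gene, with flags and positions of called intervals. Heights were whole numbers in 100% of the values of the 1681 genes with 1 active region. No counting interval can be given, as depth is unknown.

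Positions were computed from gene start, strand and listed distance. Intervals of wild-type and Keap1KO were joined until each gene had its stated number of active regions, giving 1684 regions. Regions under the same genes formed 1460 loci, with heights solved by least squares (largest residual 0.00186; tested on simulated data). Mu-class loci hold 1 region each, so their heights are as deposited. Log2 ratios used a pseudocount of 1, and 2-fold describes size only. RefSeq sequences are of GRCm38.p6, taken as the same assembly as mm10. Python 3.11.15, numpy 2.4.6 and pandas 2.3.3 were used.

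Members and lists were chosen with earlier results of these data known. Named genes were the 5 members, other genes listing their intervals, the nearest loci in height (5 for Gstm1, 3 for the others), the nearest listed gene on each side and other glutathione transferases. Alternatives were pseudocounts of 0.5 and 5, scaling of libraries to a common median, 1 value per gene row, a minimum mean height, a distance limit of 10 kb, other limits for a call and for sharing an interval.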

Additional observations from a re-analysis of the deposited data

How the results depend on the processing

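No paired analysis was possible because there is a single library per genotype. A value counted as moved when a log2 ratio shifted by more than 1.5-fold. Of 21 values of the main results under an alternative, 17 did not move and 4 did. Some of the 17 could not move. The distance limit of 10 kb removed no mu-class locus, and Keap1KO intervals at least 21.2 kb apart cannot be joined by a sharing limit of 500 bp. Interval counts were among the 21 too, and the change from 5 to 4 called intervals was labelled as not moved. Of 36 values of single loci, 22 did not move, 12 moved and 2 reversed. With libraries scaled to a common median height, the median log2 ratio over the mu-class loci went from 1.69 to 0.020 for Keap1KO over wild-type and from 2.92 to 1.19 for Keap1KO over Nrf2KO, and Keap1KO over wild-type reversed at Gstm1 (-0.84) and Gstm2 (-0.22). By construction this scaling takes the all-locus medians from 1.74 to 0.07 and from 1.91 to 0.07, although the loci were mostly listed because of a Keap1KO call. A pseudocount of 5 gave 0.74 for wild-type over Nrf2KO, against 1.45, and 2.19 for Keap1KO over Nrf2KO, since it shrinks ratios of low heights. Called mu-class intervals were 4 with a height of at least 18 required, against 5, the Gstm2 interval being the one lost. Unknown depth limits every ratio between libraries.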

Other observations

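The nearest listed neighbours of the cluster were an interval in Csf1, a growth factor gene of macrophages, 189 kb beyond the Gstm6 interval (heights of wild-type 4, Nrf2KO 7 and Keap1KO 23), and one near the start of Psma5, a proteasome subunit gene, 244 kb beyond that of Gstm1 (7, 2 and 27 in the same order). The 4 Keap1KO intervals of the mu-class genes spanned 73.7 kb.

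Interval numbers follow genome position on every chromosome in the table. The Keap1KO intervals of the cluster are numbered 1668 to 1671 without a gap, and the one in Csf1 precedes them, but numbers 1666 and 1667 stand under no gene row used here. By their numbers these 2 lie between the intervals of Csf1 and Gstm6, a stretch that includes Gstm5 (chr3:107895854-107898685 in RefSeq), which had no row. Missing numbers are common: the Keap1KO interval of Gsta4 is numbered 2650, yet only 1727 intervals of any library are listed. A gap in the numbers is therefore not particular to this stretch. The listed interval nearest to Gstm5 was 41.0 kb away. Gstm4 (chr3:108030571-108045179) lay 17.1 kb from the wild-type interval of Gstm1. No Keap1KO number was missing between the Keap1KO intervals of Gstm1 and Psma5. So no Keap1KO interval in the numbered sequence fell between them.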
